A study of Hydra vulgaris with 40 samples.

Results

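Late head regeneration in Hydra vulgaris was examined by comparing tissue collected 48 h after bisection with tissue collected 24 h after bisection. The comparison used 4 of the 40 RNA-seq samples of the study, 2 at 48 h and 2 at 24 h. Of the 17438 genes in the expression table, 16995 had a value above 0 in at least 2 of these 4 samples and were tested. Of the other 443 genes, 204 were listed at 0 in all 4 samples and 239 were above 0 in 1 of them.

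Each regeneration sample came from 1 polyp of Hydra vulgaris that had been starved for at least 1 day and was then cut across the body at the border of R1 and R2, so that the lower piece had to form a head. The 48 h group (2 samples) and the 24 h group (2 samples) differ in the time allowed for regeneration, and the labels name no genetic change or drug. The labels describe the RNA source as the R2 to R3 region, whereas the methods describe it as the apical region, cut off again. The 10 samples of adult polyps (2 each of foot, budding zone, body column, hypostome and tentacles) and the 16 samples of bud heads (2 for each of 8 stages) were used to describe the genes that changed.

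Hydra is a freshwater polyp of the phylum Cnidaria. Its head consists of the hypostome, a dome that carries the mouth and, at its tip, the head organizer, and of a ring of tentacles below it. Epithelial cells of the body column are known to become tentacle cells when they move into a tentacle, where they stop dividing and, in the ectoderm, become battery cells that hold the nematocytes used to capture prey. After decapitation, Wnt signalling is known to be activated at the cut surface, an organizer is set up there, and tentacles and a hypostome are formed anew from the tissue below the cut.

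The expression values are TPM that the authors adjusted for batch and normalized across samples, and they summed to between 997030 and 997661 in the 4 samples. The number of genes listed at 0 was 698 in each 48 h sample and 937 in each 24 h sample. Both samples of a time hold the same sorted values, so the spread between replicates is that left after normalization and the p-values may be too small. Over the tested genes, Spearman's rho was 0.974 between the 48 h samples, 0.965 between the 24 h samples and between 0.918 and 0.933 for the pairs of 1 sample from each time. The replicates are separate animals. Since no read counts were used, depth is unknown and no counting error can be given.

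Adult tissue patterns stood in for gene names, because the files and the reference tables given do not pair the gene identifiers with names, apart from 2 opsins. A gene was called tentacle-high, hypostome-high, foot-high, body column-high or budding zone-high when its mean log2(value + 1) in that adult tissue was at least 1 above that in each of the 4 other tissues. Genes with both tentacles and hypostome at least 1 above the other tissues, and less than 1 apart, were called head-shared, and genes with the same relation for body column and budding zone were called trunk-shared. Of the genes with values, 2028 were tentacle-high (1948 of them tested), 372 hypostome-high (370 tested), 230 head-shared (227 tested) and 137 trunk-shared (134 tested). A further 328 were foot-high (196 tested), 86 body column-high (53 tested) and 27 budding zone-high (19 tested), and 14230 had no class (14048 tested).

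Genes of the adult head were more frequent among the genes that rose by 48 h than among all genes tested. In the limma fit, 634 genes (3.73% of those tested) were higher at 48 h and 191 genes (1.12%) were lower, at an adjusted p under 0.05, which makes 825 genes in all (4.85%). With a difference of at least 2-fold required as well, 512 (3.01%) were higher and 119 (0.7%) lower. Of the 634 genes that rose, 348 were tentacle-high (54.9%), 72 were hypostome-high (11.4%) and 52 were head-shared (8.2%). The tentacle-high and hypostome-high genes together were 66.2% of the genes that rose, and they were 13.6% of the genes tested. With the head-shared genes, the 3 head classes held 472 of the genes that rose (74.4%), and they held 15.0% of the genes tested. The shares depend on how a class is defined: with 4-fold in place of 2-fold above the other tissues, 46.5% of the genes that rose were in the head classes, 35.0% tentacle-high and 6.47% hypostome-high. In bulk tissue, a smaller number of cells of a type and less RNA per cell cannot be told apart, and the same holds for a difference in where the second cut was made.

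The number of genes called rested on all 4 samples. When 1 sample was left out, the spread of the lone remaining sample was assumed to be that of the other time. The fit then called 39 genes higher without the first 24 h sample, 13 without the second 24 h sample, and none without either 48 h sample. It called 5 genes lower without the first 24 h sample and none without any of the 3 others. At an unadjusted p under 0.05, between 1591 and 2527 genes were higher and between 1003 and 1668 were lower in these 4 fits, against 2571 higher and 1911 lower with all 4 samples. The balance of these unadjusted counts depended on the scaling, with 2197 higher and 2542 lower after quantile normalization of the 4 samples, where 521 genes were called higher and 216 lower. A fit of all 14 regeneration samples, which estimates the spread from 7 times, called 917 genes higher and 261 lower. It shared 496 of the higher calls and 109 of the lower calls with the fit of 4 samples, and 71.2% of its higher calls were in the head classes.

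**Figure D1:**
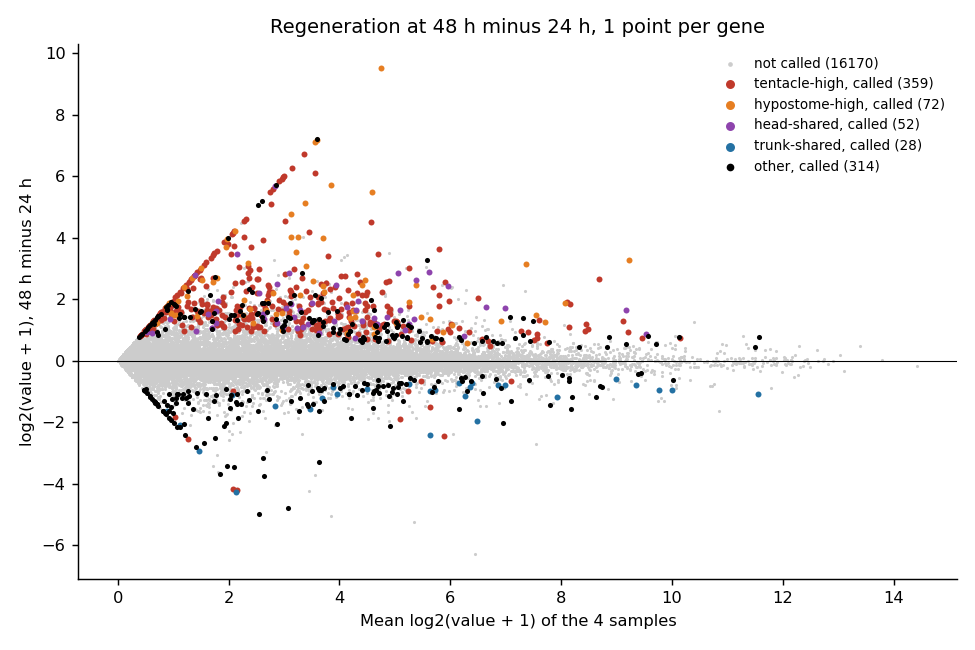
Each point is 1 tested gene, with its mean log2(value + 1) over the 4 samples on the x axis and its log2 difference, 48 h minus 24 h, on the y axis. Grey points are genes that did not pass the test, and coloured points are the genes called, by adult tissue class. The tentacle-high, hypostome-high and head-shared genes that were called lie almost all above 0, and the trunk-shared genes that were called lie below it.

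Within the tentacle-high class, 348 of 1948 genes rose (17.9%) and 11 fell (0.565%), against 3.73% and 1.12% of all genes tested. The median log2 difference of the class was 0.48, and the medians of the 4 pairs of single samples ran from 0.475 to 0.501. The median over all genes tested was -0.0058. The median value of a tentacle-high gene was 5.27 at 48 h and 2.73 at 24 h. Both 48 h samples were above both 24 h samples in 1332 genes of the class (68.4%), which holds for 28.6% of all genes tested.

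Within the hypostome-high class, 72 of 370 genes rose (19.5%) and none fell in the limma fit, where 1 gene was lower at an unadjusted p under 0.05 and none was called lower in the fit of 14 samples. The median log2 difference was 0.75, with pair medians between 0.562 and 0.955. The median value of a hypostome-high gene was 11.6 at 48 h and 4.86 at 24 h. The 48 h samples did not overlap with the 24 h samples and were higher in 270 genes of the class (73.0%). The same holds for 28.6% of all genes tested.

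Head-shared genes gave the highest percentage of rises of the 7 classes. Of 227 genes, 52 rose (22.9%) and none fell in the limma fit, in which 4 genes were lower at an unadjusted p under 0.05, and none was called lower in the fit of 14 samples. Their median log2 difference was 0.80, with pair medians between 0.698 and 0.954. In 182 of them (80.2%) both 48 h samples were above both 24 h samples, which holds for 28.6% of all genes tested. Whether the 3 head classes differ from each other in their response was not tested.

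Genes of the adult trunk changed in the other direction. Of 134 trunk-shared genes, 28 fell (20.9%) and none rose in the limma fit, in which 1 gene was higher at an unadjusted p under 0.05, and the fit of 14 samples also called 28 lower and none higher. Their median log2 difference was -0.83, with pair medians between -0.926 and -0.73, and their median value was 8.81 at 48 h and 17.6 at 24 h. Both 48 h samples were below both 24 h samples in 106 of them (79.1%), which holds for 28.7% of all genes tested. Over all genes tested, 1.12% fell. In the small body column-high class 2 of 53 genes fell (3.77%), and in the budding zone-high class 3 of 19 fell (15.8%). No gene of these 2 classes rose in the limma fit, and none was higher at an unadjusted p under 0.05 or in the fit of 14 samples.

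Foot-high genes, from the tissue at the other end of the polyp, had no common direction. Of 196 genes tested, 2 rose (1.02%) and 9 fell (4.59%), against 3.73% and 1.12% of all genes tested. The median log2 difference of the class was -0.044. Genes with no class made up the rest: 160 of 14048 rose (1.14%) and 138 fell (0.982%), with a median of -0.046. These 138 genes were 72.3% of the genes that fell, below their 82.7% of the genes tested, whereas the trunk-shared genes were 14.7% of those that fell and 0.788% of those tested.

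**Figure D2:**
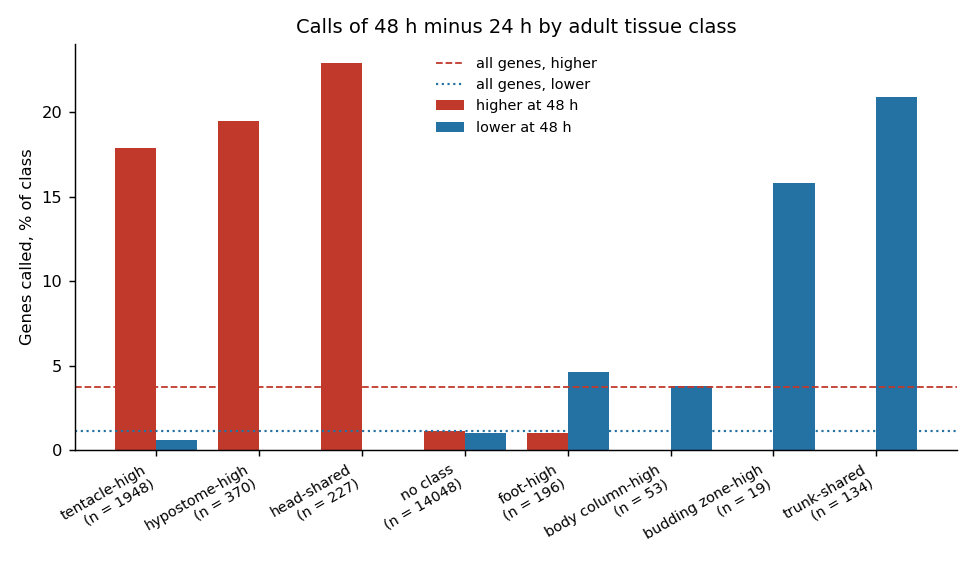
Bars give, for each adult tissue class on the x axis, the percent of its tested genes that were higher (red) or lower (blue) at 48 h than at 24 h (limma, adjusted p under 0.05), and horizontal lines give all genes tested (dashed, 3.73% higher; dotted, 1.12% lower). The tentacle-high (17.9%), hypostome-high (19.5%) and head-shared (22.9%) classes stand above the line for rises, and the trunk-shared class (20.9%) stands above the line for falls.

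The same pattern extended to genes outside the classes. The mean log2(value + 1) of tentacles and hypostome minus that of body column and budding zone placed all tested genes on a scale from trunk to head. The adult head was above the adult trunk in 619 of the 634 genes that rose (97.6%) and in 38 of the 191 that fell (19.9%), against 55.9% of all genes tested. Among the called genes with no class, it was above the trunk in 147 of 160 that rose (91.9%) and in 25 of 138 that fell (18.1%). Of those 160 genes, 88 had their highest adult mean in tentacles (55.0%, against 39.0% of all genes tested) and 38 in the hypostome (23.8%, against 19.9%, a share near that of all genes). A further 25 had it in the foot (15.6%, against 7.57%). Of those 138 genes, 60 had it in the budding zone (43.5%, against 18.9%) and 32 in the body column (23.2%, against 14.7%). The foot was the highest tissue for 18 of them (13.0%, against 7.57%), so foot was above its share of all genes in both directions. All genes tested, the set compared with here, include the head and trunk classes. The same shares over the tested genes with no class were not counted.

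The percentage of rises increased with the head-to-trunk difference in the adult. Of the 329 genes at 3 and over on that scale, 186 rose (56.5%) and 1 fell (0.304%). In the band from 2 to 3, 173 of 522 genes rose (33.1%), and in the band from 1 to 2, 184 of 1916 rose (9.6%). Among the 8709 genes between -0.5 and 0.5, 28 rose (0.322%) and 47 fell (0.54%). Among the 513 genes below -2, 71 fell (13.8%) and none rose in the limma fit, in which 5 were higher at an unadjusted p under 0.05. Genes at 0 in both samples of a time entered these bands only through the other time. The bands were not recounted without them.

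**Figure D3:**
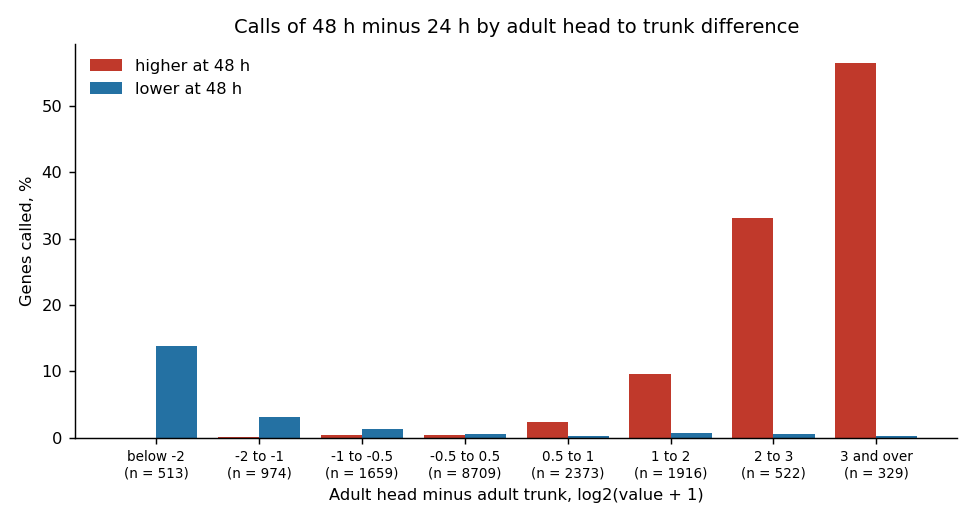
The x axis gives 8 bands of the adult log2 difference, head (tentacles and hypostome) minus trunk (body column and budding zone), and the y axis the percent of the tested genes of a band that were higher or lower at 48 h than at 24 h. Rises reach 56.5% in the band of 3 and over, and falls reach 13.8% in the band below -2.

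Specificity for a head tissue ran alongside this. Of the 96 tentacle-high genes at least 16-fold above the next adult tissue, 61 rose (63.5%), and of the 156 genes 8-fold to 16-fold above it, 81 rose (51.9%). The band from 4-fold to 8-fold held 80 rises in 368 genes (21.7%), and that from 2-fold to 4-fold held 126 in 1328 (9.49%). Of the 31 hypostome-high genes at least 16-fold above the next tissue, 19 rose (61.3%), and of the 39 genes 8-fold to 16-fold above it, 11 rose (28.2%). The lower bands were close to each other, with 11 of 80 (13.8%) from 4-fold to 8-fold and 31 of 220 (14.1%) from 2-fold to 4-fold. These folds are on the log2(value + 1) scale, which understates differences between low values.

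A call depends on the level of a gene, so the classes were also read within bands of the mean value over the 4 samples. Of the head class genes with a mean under 1, 32 of 488 rose (6.56%), against 1.51% of all genes at that level. In the band from 1 to 5 it was 15.8% against 3.36%, in the band from 5 to 20 it was 22.6% against 4.52%, and at 20 and over it was 28.1% against 5.0%. The head classes were above all genes in each of the 4 bands.

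The share of the summed value taken by a class describes its weight in the adjusted signal, which is not an amount of RNA. Tentacle-high genes took 5.83% and 5.74% of the sample total at 48 h, against 3.98% and 3.70% at 24 h, a ratio of means of 1.51. Hypostome-high genes took 2.05% and 2.07% at 48 h, against 1.23% and 1.01% at 24 h, a ratio of 1.84. Head-shared genes took 0.902% and 0.919% at 48 h, against 0.503% and 0.467% at 24 h. Both 48 h samples were above both 24 h samples in each of these 3 classes. A few members weighed heavily in these sums. The 10 members that gained most added 0.572 percentage points in the tentacle-high class, where the net gain was 1.95. They added 0.522 in the hypostome-high class (net 0.944) and 0.257 in the head-shared class (net 0.426).

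Trunk-shared genes took 2.01% and 2.10% of the total at 48 h, against 3.04% and 3.78% at 24 h, a ratio of 0.603. Foot-high genes took 0.872% and 0.546% at 48 h, against 1.16% and 1.09% at 24 h. Both classes were lower in each 48 h sample than in each 24 h sample. An exact two-sided permutation test with 2 samples against 2 cannot go below p = 0.33, which was the value for all of these shares.

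At 48 h, the shares of the tentacle-high and hypostome-high classes were below those in the adult tissue each class is named for. Tentacle-high genes took 23.4% and 22.7% of the total in adult tentacles and 2.95% and 3.07% in the adult body column. The 48 h shares of 5.83% and 5.74% lay between these, and near those of the adult hypostome (5.45% and 5.12%). Hypostome-high genes took 6.6% and 7.0% of the total in the adult hypostome and 0.787% and 0.71% in the body column. A regenerating sample holds more than the tissue a class is named for. The classes were also chosen for high values in these same adult samples. The part of either in the gap to the adult was not tested.

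Gene by gene, the 348 tentacle-high genes that rose stood at a median of 17.8% of their adult tentacle mean at 48 h and 3.34% at 24 h. Of these, 15 had reached at least 50% of the adult mean at 48 h. The 72 hypostome-high genes that rose stood at a median of 34.6% of their adult hypostome mean at 48 h and 3.82% at 24 h, and 18 of them had reached at least 50%. The 48 h and 24 h values chose these genes, so their step between the times is a description. Over all genes of each class, called or not, the medians were 19.9% at 48 h and 11.6% at 24 h for tentacle-high genes. For hypostome-high genes they were 37.8% at 48 h and 18.7% at 24 h. The classes were chosen for high values in the same adult samples, which favours levels below the adult.

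The head genes did not climb evenly over the 7 times of regeneration. The summed share of the 3 head classes was 5.52% and 4.81% at 0 h, 6.83% and 6.80% at 12 h, 5.71% and 5.18% at 24 h, and 8.79% and 8.73% at 48 h. The median log2 difference of tentacle-high genes from 0 h was 0.15 at 12 h, 0.046 at 24 h and 0.57 at 48 h. For hypostome-high genes it was -0.26 at 2 h, -0.074 at 12 h, -0.27 at 24 h and 0.48 at 48 h. Both classes were thus lower at 24 h than at 12 h before they were highest at 48 h, and whether the 24 h and 12 h levels differ was not tested. Foot-high genes took 0.403% and 0.317% of the total at 0 h, 1.16% and 1.09% at 24 h, and 0.872% and 0.546% at 48 h, so that their share at 48 h was below that at 24 h and above that at 0 h.

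**Figure D4:**
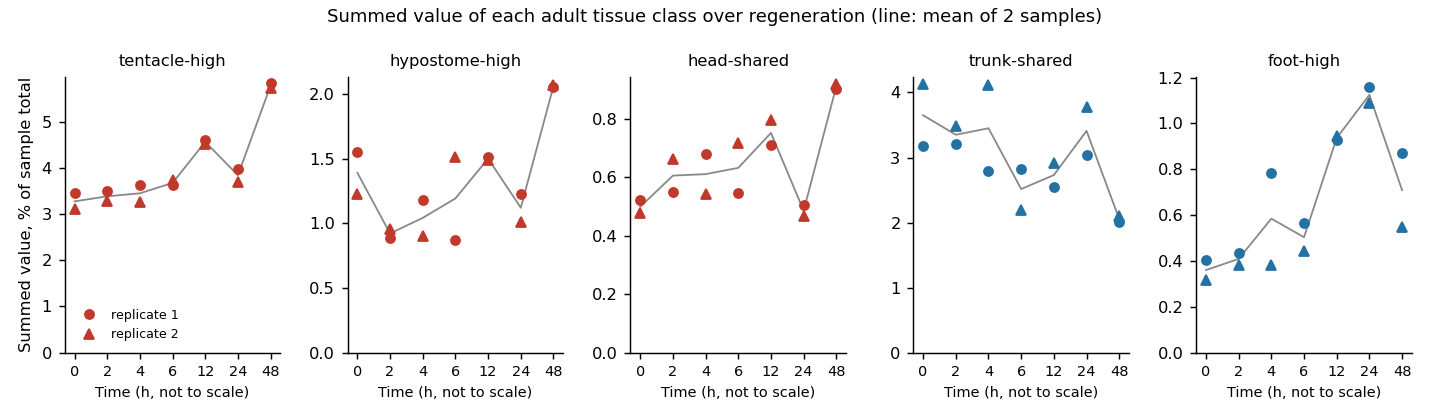
Each of the 5 panels shows 1 class, with a circle for replicate 1, a triangle for replicate 2 and a line through their means at the 7 times of regeneration (x axis, hours after bisection, evenly spaced and not to scale). The y axis, which differs between panels, gives the summed value of a class as percent of the sample total. Tentacle-high genes reach 5.83% and 5.74% at 48 h, and trunk-shared genes are at 2.01% and 2.10%.

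Of the 634 genes that rose, 575 had their highest mean of the 7 times at 48 h (90.7%), which holds for 20.9% of all genes tested. Since 48 h was part of the comparison that chose these genes, the first count is a description. In the classes, which were set by adult tissue alone, the highest mean was at 48 h in 1156 of 1948 tentacle-high genes (59.3%), 234 of 370 hypostome-high genes (63.2%) and 154 of 227 head-shared genes (67.8%). Of the 191 genes that fell, 128 had their lowest mean at 48 h (67.0%, against 22.3% of all genes tested) and 68 had their highest mean at 24 h (35.6%, against 11%), which is likewise a description, since both times chose these genes.

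A set of 99 genes was listed at 0 in both 24 h samples and at 1 or more in both 48 h samples. It held 57 tentacle-high, 15 hypostome-high, 3 head-shared and 3 foot-high genes and 21 genes with no class. Of all genes tested, 11.5% were tentacle-high, 2.18% hypostome-high, 1.34% head-shared and 1.15% foot-high, 0.788% were trunk-shared and 82.7% had no class. The 99 genes entered the test through their 48 h values alone, so how many passed it is not given. Those that passed are part of the 634 genes that rose. With genes at 0 in both samples of a time left out, a choice made after seeing the data, 550 genes were higher and 162 lower. Of the 550 genes, 54.2% were tentacle-high, 11.1% hypostome-high and 74.4% in the 3 head classes. At the earlier times, 46 of the 99 were listed at 0 in both samples at 0 h, 67 at 2 h, 68 at 4 h, 48 at 6 h and 44 at 12 h. In the other direction 37 genes were listed at 0 in both 48 h samples and at 1 or more in both 24 h samples. Of these, 5 were trunk-shared, 2 tentacle-high, 2 foot-high, 2 budding zone-high and 1 body column-high, and 25 had no class. A value listed at 0 can be a failed estimate, and 12 genes at 24 h and 2 at 48 h were at 0 in 1 sample and at 20 or more in its replicate.

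Among the tentacle-high genes that passed the test, the largest rise was that of Sc4wPfr_569.1.g4046. Its value was 110.22 and 98.15 in the 48 h samples, and it was listed at 0 in both 24 h samples. Both 48 h samples were high and close to each other, and the groups did not overlap. Earlier in regeneration it was listed at 0 in all samples other than 1 at 0 h (5.78) and 1 at 12 h (8.22). In the adult it was at 816.59 and 852.15 in tentacles and at 216.55 and 164.11 in the hypostome, and it was listed at 0 in body column, budding zone and foot. In the buds it was at 0 in both stage 1 samples and between 49.98 and 209.06 in all later ones. It passed the filter on low values only through its 48 h samples, and in the fit of all genes with no filter its limma adjusted p was 0.0137. In the fit of 14 samples it was 0.0034.

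Among the hypostome-high genes that passed, the largest rise was that of Sc4wPfr_661.g19812. Its value was 354.16 and 1489.15 in the 48 h samples, and it was listed at 0 in both 24 h samples. The groups did not overlap, although the 48 h samples differed from each other by a factor of 4.2. The gene was at 292.15 and 0 at 0 h, at 0 and 160.24 at 6 h and at 0 and 66.82 at 12 h, and at 0 in all samples at 2 h and 4 h. In the adult hypostome it was at 2668.24 and 2403.1, and in tentacles at 717.02 and 798.3. It was listed at 0 in body column, budding zone and foot. In the buds it was between 284.06 and 330.24 in all samples. The stage 1 samples were at 296.96 and 287.67, and the stage 10 samples at 294.48 and 284.06. The gene thus showed no rise from the first to the last bud stage. Why its bud values were this even was not tested. This gene too passed the filter only through its 48 h samples. Its limma adjusted p was 0.05 with no filter, and the call was lost in the fit of 14 samples (0.0905), with the replicate block (0.0598) and without the first or second 24 h sample (0.0645 and 0.0991).

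The 2 largest falls among the genes that passed the test were in genes that were low or listed at 0 in the adult head. Sc4wPfr_1386.g7453 was at 0.08 and 0 in the 48 h samples, against 16.18 and 62.89 in the 24 h samples, a log2 difference of -4.99 (SE 0.678, limma adjusted p = 0.0433). It was between 25.56 and 64.55 in all samples from 0 h to 12 h, so the 48 h samples were the only low ones of the course. In the adult it was at 122.19 and 89.03 in the foot, at 60.58 and 61.93 in the budding zone and at 38.6 and 41.27 in the body column. It was at 3.03 and 2.0 in the hypostome and listed at 0 in tentacles. All 16 bud samples were between 30.8 and 39.07. The gene was also called lower in the fit of 14 samples (limma adjusted p = 0.000521) and with a pseudocount of 0.1 (0.0308). The call held without the first 24 h sample (0.0432) and was lost without the second (0.0678) or either 48 h sample (0.26 and 0.243), with the replicate block (0.0778) and with no filter (0.0768).

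Sc4wPfr_126.2.g29316, a budding zone-high gene, was at 1.55 and 0 in the 48 h samples, against 31.54 and 59.34 in the 24 h samples, a log2 difference of -4.79 (SE 0.58, limma adjusted p = 0.0372). In the adult it was at 26.54 and 21.03 in the budding zone, at 11.44 and 8.34 in the body column and listed at 0 in tentacles and hypostome. The gene was above both 48 h samples in all samples from 2 h to 24 h, but 1 of the 0 h samples was at 0. It was also called lower in the fit of 14 samples (limma adjusted p = 0.048). Its call was lost when any of the 4 samples was left out (adjusted p from 0.0769 to 0.244), with a pseudocount of 0.1 (0.0906), with no filter (0.0676) and with the replicate block (0.0871).

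**Figure D5:**
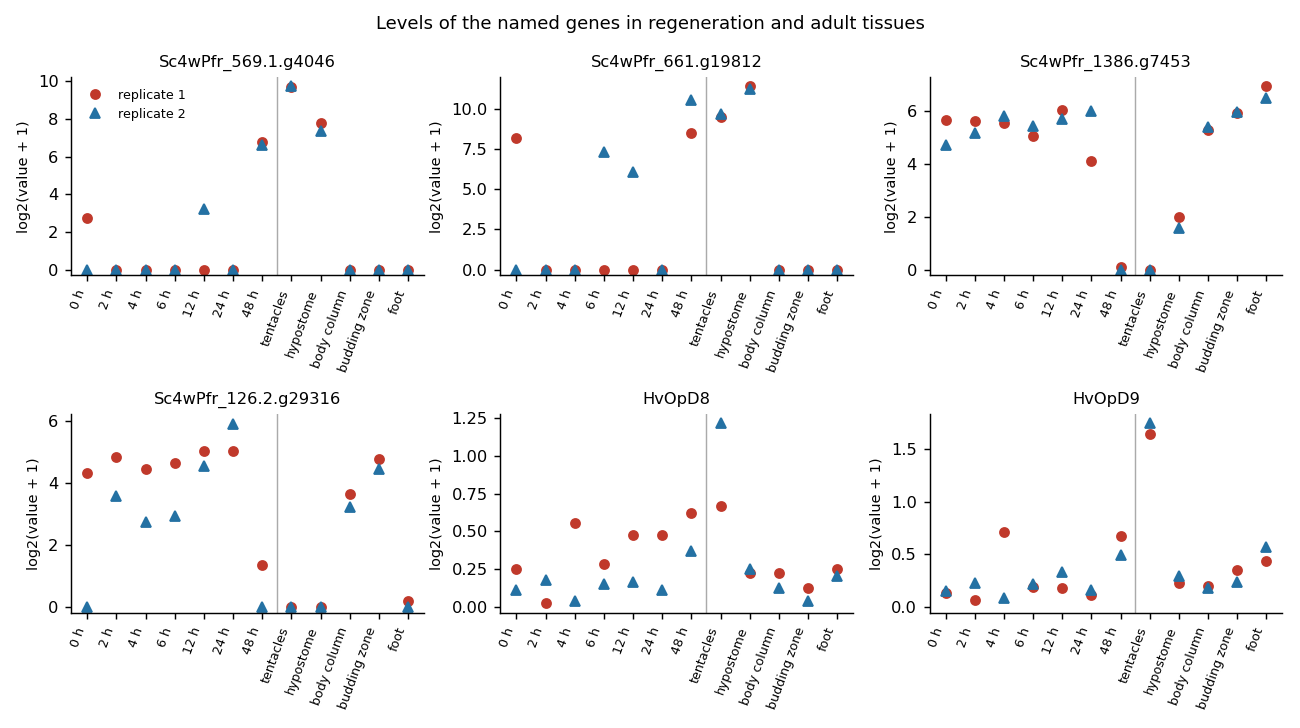
Each panel shows 1 named gene, with log2(value + 1) of replicate 1 (circle) and replicate 2 (triangle) on the y axis and the 7 times of regeneration and the adult tissues on the x axis. The 48 h samples of Sc4wPfr_569.1.g4046 (110.22 and 98.15) and Sc4wPfr_661.g19812 (354.16 and 1489.15) stand above 24 h samples listed at 0, and those of Sc4wPfr_1386.g7453 (0.08 and 0) and Sc4wPfr_126.2.g29316 (1.55 and 0) stand below theirs.

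Opsins are light-sensitive receptor proteins, and the study pairs 2 of its opsins with identifiers of the expression table. HvOpD9, on scaffold Sc4wPfr_161 from 296470 to 297429 in the H. vulgaris 2.0 assembly, was a tentacle-high gene. Its value was 0.6 and 0.41 in the 48 h samples, against 0.08 and 0.12 in the 24 h samples. The groups did not overlap, but the log2 difference of 0.45 (SE 0.127) did not pass the test (limma adjusted p = 0.132). In adult tentacles the gene was at 2.13 and 2.36.

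HvOpD8, on scaffold Sc4wPfr_144.3 from 1004179 to 1014236, had no class on the log2(value + 1) scale, although its adult values were 0.59 and 1.32 in tentacles and at most 0.19 in the other tissues. Its value was 0.54 and 0.29 in the 48 h samples, against 0.39 and 0.08 in the 24 h samples, so the groups overlapped. The log2 difference was 0.20 (SE 0.191, limma adjusted p = 0.561). Both opsins lay among the lowest genes of the table, at percentiles 4.58 (HvOpD9) and 5.14 (HvOpD8) of the mean value over the 4 samples.

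Buds form a head without a wound, and their samples took no part in the comparison of 48 h with 24 h. A limma slope over the order of the 8 bud stages rose in 1085 of 17438 genes (6.22%) and fell in 53 (0.304%), and among the 16995 genes tested at 48 h against 24 h it rose in 1083 (6.37%) and fell in 46 (0.271%). Of the 634 genes that were higher at 48 h, 193 also rose over budding, which is 30.4% of them and 17.8% of the genes that rose over budding, and 1 fell. By class, 31 of 72 hypostome-high (43.1%), 27 of 52 head-shared (51.9%), 94 of 348 tentacle-high (27.0%) and 40 of 160 genes with no class (25%) rose over budding. Of the 191 genes that were lower at 48 h, none rose over budding in the limma fit, where 8 had a rising slope at an unadjusted p under 0.05, and 7 fell (3.66%). Among head class genes that were not called higher at 48 h, 247 of 1600 tentacle-high (15.4%) and 91 of 298 hypostome-high genes (30.5%) rose over budding.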

How the data were processed

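Expression had been measured by RNA-seq (Smart-seq2) in single regenerating polyps, adult tissues and buds. The deposited values are an adjusted signal: the authors trimmed reads (Trimmomatic 0.35), mapped them to a reference transcriptome (Bowtie 1.2), estimated TPM (RSEM 1.2.31), removed batch effects (ComBat) and applied smooth quantile normalization (qsmooth). The batches given to ComBat are not given in the sources used here. The processing can shrink the spread between replicates, and whole reads could not be recovered.

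Columns were assigned to samples by name. Genes with values above 0 in 2 or more of the 4 samples were fitted on log2(value + 1) with limma 3.58.1 in R 4.3.3 (lmFit, eBayes with trend), two-sided, with Benjamini-Hochberg adjustment over the 16995 genes and a threshold of 0.05. The tests had been planned for TPM and were kept for the adjusted signal. Tissue classes used the means of the 10 adult samples. Bud trends were slopes over the order of the 8 stages in 16 samples. Shares were tested with exact permutation tests. The main fit was also run on simulated data with independent normal noise. That simulation left out the batch and quantile steps, so it cannot show whether the p-values hold for the adjusted signal. Named genes were the largest rise among tentacle-high and among hypostome-high genes and the 2 largest falls, given an adjusted p under 0.05, groups that do not overlap and a mean of at least 5 in the higher group (490 genes that rose and 136 that fell met these conditions), and both opsins that could be matched (2 of 45). The contrast, the classes and the gene lists were chosen with earlier results of these data known. Alternatives were the pseudocount, the filter, scaling, the replicate block, all 14 regeneration samples, each sample left out, the fold of a class and the call rule. Gene sequences and the annotation of another assembly were not used here. Tables and figures were made with Python 3.11.15, pandas 2.3.3, numpy 2.4.6, scipy 1.17.1 and matplotlib 3.10.9.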

Additional observations from a re-analysis of the deposited data

How the results depend on the processing

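The medians of both head tissue classes kept their sign under the alternatives run. So did the differences of the 2 named genes that fell and of the 2 opsins, where they were fitted. The 2 named genes that rose were listed at 0 in both 24 h samples, so the sign of their differences could not change. With a 48 h sample left out they failed the filter and were not fitted. The balance of genes at an unadjusted p under 0.05 did not keep its direction (2571 higher and 1911 lower, against 2197 and 2542 after quantile normalization). The median over all genes was -0.0058, against 0.00011 after median-ratio scaling. With 2 samples a time the calls are weak: with 1 sample left out, genes called higher ran from 0 to 39 and lower from 0 to 5, the tentacle-high percent of the higher calls from 64.1 to 76.9, the hypostome-high percent from 15.4 to 17.9 and the head percent from 92.3 to 94.9 (no percent without a 48 h sample, where none was called), the percent of tentacle-high genes called from 0 to 1.3 and of hypostome-high genes from 0 to 1.9, and the medians from 0.457 to 0.504 (tentacle-high) and 0.635 to 0.851 (hypostome-high). The replicate 1 minus replicate 2 deviations at 48 h and at 24 h were nearly uncorrelated (0.0149). Batch effects had already been removed from these values, so this cannot show whether the replicate numbers pair the samples. With the replicate number as a block, 18 genes were higher and 0 lower (2427 and 1638 at an unadjusted p under 0.05), with 61.1% tentacle-high, 16.7% hypostome-high and 94.4% in the head classes, and 0.565% of tentacle-high and 0.811% of hypostome-high genes called. Without a filter, 223 were higher and 34 lower (64.1% tentacle-high, 82.1% head), with 7.05% and 6.72% of tentacle-high and hypostome-high genes called and a tentacle-high median of 0.457. With a minimum of 1 in 2 samples, 835 were higher and 298 lower (50.9% tentacle-high, 70.7% head), with 27.0% and 27.2% of both classes called and a tentacle-high median of 0.596. A pseudocount of 0.1 gave medians of 0.744 and 0.967. Quantile normalization gave 15.4% of tentacle-high genes called and a median of 0.419, with 521 higher and 216 lower. The fit of 14 samples gave 49.3% tentacle-high, 22.7% and 31.8% of both classes called and a tentacle-high median of 0.467. A class fold of 1.5 gave 64.2% tentacle-high, 14.2% hypostome-high, 85.0% head, 12.4% and 13.6% of both classes called, medians of 0.319 and 0.52, and gains in summed share of 2.91 and 1.13 percentage points (main 1.95 and 0.944). A class fold of 4 gave 35.0%, 6.47%, 46.5%, 35.8% and 27.3%, medians of 1.07 and 0.995, and gains of 0.896 and 0.499. Requiring 2-fold as well as the adjusted p left 512 higher and 119 lower (59.0% tentacle-high, 80.9% head, 15.5% of tentacle-high genes called). Without the most abundant member the gains were 1.8 and 0.778. Leaving out genes at 0 in both samples of a time, an alternative chosen after seeing the data, gave a tentacle-high median of 0.45. With stage 10 minus stage 1 in place of the bud slope, 292 of the genes higher at 48 h rose over budding (main 193). That comparison also called more genes rising in all, 1257 against 1085 for the slope. The cause of these changes was not tested, other than that fewer samples entered the fits with 1 left out. For low genes the depth, unknown here, limits what could be detected.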

Other observations

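Sc4wPfr_661.g19812 had neighbours of the same pattern. The 3 next-numbered gene models on its scaffold were all hypostome-high and were listed at 0 in both 24 h samples. Their values in the 48 h samples were 4.67 and 13.82 for the first, 65.04 and 293.98 for the second and 10.48 and 41.5 for the third. They passed the filter on low values only through their 48 h samples, so no test is given. In all 4 models the second 48 h sample was above the first, by factors of 4.2, 2.96, 4.52 and 3.96, in the order of their numbers. The 3 models numbered before it had no class and were not called. These neighbours were looked up after the values of the named gene had been seen, and whether the 4 models are copies of one sequence or parts of one gene was not tested.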
